A study of Mus musculus with 6 samples.

Results

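Hes5 and 7 further genes of the Notch pathway were followed in the anterior cingulate cortex (ACC), a frontal midline area of the mouse brain. The 8 genes were Hes5, Hes1, Hey1, Notch1, Notch2, Notch3, Jag1 and Rbpj, picked by symbol, and all 8 had a row among the 14250 rows of the deposited table. Hes5 was picked because it stood out in the comparison of LPS with saline mice, so its values in that comparison, and those of the other 7, are given as a description. Messenger RNA with a poly(A) tail had been sequenced from 6 C57BL/6 mice, 1 library each. The LPS group was 3 mice given lipopolysaccharide, a bacterial endotoxin that triggers inflammation, at 50 µg per kg into the abdomen on postnatal day 14. The Saline group was 3 mice given pyrogen-free saline on the same day. All 6 were dissected on postnatal day 45, and the protocols describe the same anaesthesia, perfusion and hand dissection for both groups. Sex, litter and collection order are not stated in the labels.

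Notch signalling passes between touching cells. A ligand such as Jag1 on one cell binds a Notch receptor on its neighbour, the receptor is cut, and its inner part moves to the nucleus, where it joins the DNA-binding protein Rbpj and switches on repressor genes of the Hes and Hey families. These repressors carry a basic helix-loop-helix (bHLH) domain and hold back genes that drive neuronal differentiation. In the developing brain Hes1 and Hes5 keep neural progenitors from differentiating, and in the grown cortex Notch pathway genes are known from astrocytes, blood vessel cells and neurons.

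Because Rbpj binds DNA at sites with the core letters TGGGAA, the sequence before the start of Hes5 is shown for its matches to the longer form GTGGGAA. The RefSeq promoter windows (build GRCm38.p6) held 6 of the 8 members, and Hes1 and Hey1 had no window. The 250 bases before the Hes5 start on chromosome 4 (chr4:154960673-154960922, plus strand) are printed 5′ to 3′, with matches to GTGGGAA on either strand in capitals.

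Hes5: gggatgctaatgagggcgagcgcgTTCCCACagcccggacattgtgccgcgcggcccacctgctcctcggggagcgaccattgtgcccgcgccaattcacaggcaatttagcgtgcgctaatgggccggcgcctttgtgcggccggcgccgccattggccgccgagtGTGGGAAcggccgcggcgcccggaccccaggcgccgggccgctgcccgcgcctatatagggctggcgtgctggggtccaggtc

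The Hes5 window held 2 matches to GTGGGAA, 1 on each strand, whose first printed bases lay at -226 and -83 counted back from the start. Of all 32841 promoter windows of the same 300-base length, 6.38% held at least 1 match and 0.256% at least 2. Both Hes5 matches contain the shorter TGGGAA, which was present in 25.6% of all windows. Rbpj, which has 2 overlapping windows, held TGGGAA 2 times in the first and 1 time in the second, without the leading G. The windows of Notch1, Notch2, Notch3 and Jag1 had no match to TGGGAA. No member's window held the E-box CACGTG, found in 7.15% of all windows, and the N-box CACNAG, a site that Hes proteins bind and that 42.5% of windows held, was present in those of Notch1, Notch2 and Notch3. A match says only that these letters occur there.

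The libraries held 36168687 to 41270737 counts, and the members' counts ran from 275 for Jag1 in Saline 1 to 2726 for Hey1 in LPS 2. Marker lists for neurons, astrocytes, oligodendrocytes, vessels and microglia were detected in each library. No listed marker separates the ACC from neighbouring cortex. In whole tissue, more cells of a type and more RNA per cell cannot be told apart.

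Hes5 codes for a bHLH repressor and is a classical target of the Notch and Rbpj complex. Its level was 20.7, 20.9 and 18.9 CPM (counts scaled to library size with TMM factors) in LPS 1, 2 and 3, against 10.8, 11.5 and 9.96 CPM in Saline 1, 2 and 3. Each LPS library lay well above each Saline library, with a gap between the groups several times the spread within either. The means were 20.2 ± 1.13 CPM in LPS mice and 10.7 ± 0.765 CPM in Saline mice (SD, n = 3 each). The log2 change was 0.91 (SE 0.0952), a 1.88-fold higher level with a 95% interval of 1.62 to 2.18. Hes5 was 1 of the 14 rows that edgeR called higher in LPS at an adjusted p under 0.05, which is 0.0982% of the 14250 rows tested, and it was the 13th row by p. That call is how the gene came to be picked.

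The gene lies on chromosome 4 at 154960923 to 154962371 on the plus strand (GRCm38), with 1363 exonic bases in GENCODE M21, and its exons overlapped no other tested gene. The 4 other tested genes within 100 kb were called neither higher nor lower, and the groups overlapped in each of them. Pank4, a pantothenate kinase family gene that starts just downstream on the same strand, had a log2 change of 0.10 (SE 0.082). Plch2, a phospholipase C gene, was at -0.06 (SE 0.0761), Fam213b at -0.17 (SE 0.132) and Ttc34 at 0.11 (SE 0.267).

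**Figure D1:**
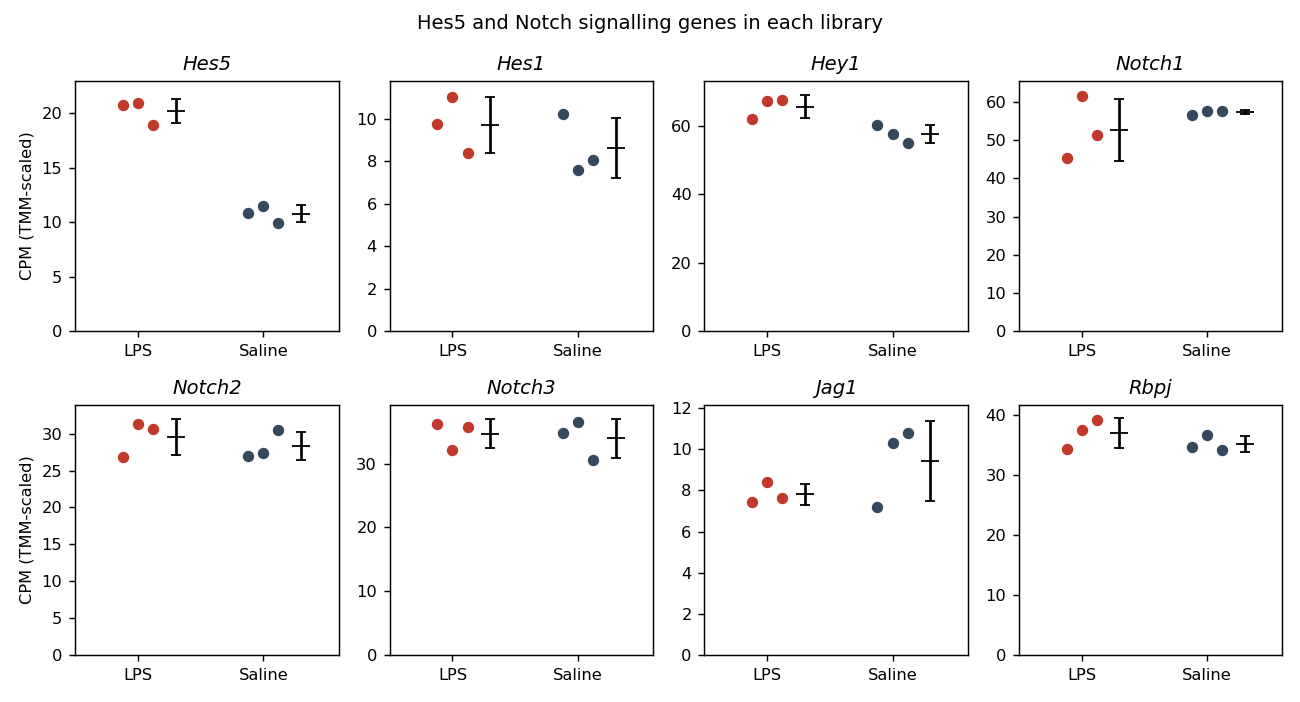
CPM of each of the 8 genes in the 3 LPS libraries (red) and the 3 Saline libraries (blue-grey), with the mean and SD as a bar beside the points; every vertical axis starts at 0. The Hes5 points of the LPS mice, 18.9 to 20.9 CPM, stand clear of those of the Saline mice, 9.96 to 11.5 CPM, while most other panels overlap.

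The other Hes and Hey members differed less between the groups. Hes1, a related repressor gene and likewise a Notch target in progenitors, had 9.73, 11.0 and 8.38 CPM in the LPS libraries, against 10.2, 7.57 and 8.07 CPM in the Saline libraries. Saline 1 lay among the LPS values, so the groups overlapped. The log2 change was 0.17 (SE 0.149), with a 95% interval of -0.16 to 0.50. The interval of Hes5 was 0.69 to 1.12, but Hes5 was picked for its difference. Whether the changes of these genes differ was not tested.

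Hey1, a target best known from blood vessels and also expressed in brain, had 61.9, 67.4 and 67.7 CPM in the LPS libraries, against 60.4, 57.6 and 54.9 CPM in the Saline libraries. Each LPS library was above each Saline library, but LPS 1 and Saline 1 were 61.9 and 60.4 CPM, close to each other. The log2 change was 0.19 (SE 0.0644) with a 95% interval of 0.04 to 0.33, and it did not pass the threshold over all rows. A gap in this direction was present in 6.84% of all rows.

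The receptors are cut on ligand binding and carry the signal to the nucleus. Notch1, the receptor most studied in neural progenitors, had 45.4, 61.5 and 51.3 CPM in the LPS libraries, against 56.7, 57.6 and 57.7 CPM in the Saline libraries. The Saline values were nearly equal while the LPS values spread on both sides of them (log2 change -0.12, SE 0.101). Notch2 had 26.8, 31.3 and 30.7 CPM in the LPS libraries, against 27.0, 27.4 and 30.5 CPM in the Saline libraries (log2 change 0.06, SE 0.0879).

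Notch3, the receptor of vascular mural cells, had 36.2, 32.1 and 35.8 CPM in the LPS libraries, against 34.8, 36.5 and 30.5 CPM in the Saline libraries (log2 change 0.03, SE 0.088). The ranges of both Notch2 and Notch3 overlapped almost fully. The groups overlapped in each of the 3 receptors.

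Jag1, the ligand among the 8, had 7.44, 8.40 and 7.62 CPM in the LPS libraries, against 7.20, 10.3 and 10.8 CPM in the Saline libraries. Saline 1 was the lowest of all 6, and the other 2 Saline libraries were the highest. The log2 change was -0.27 (SE 0.158), with a 95% interval of -0.63 to 0.08. Rbpj, the DNA-binding partner of the cut receptor, had 34.3, 37.5 and 39.1 CPM in the LPS libraries, against 34.7, 36.7 and 34.1 CPM in the Saline libraries (log2 change 0.07, SE 0.075).

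Of the 7 members other than Hes5, edgeR, DESeq2 and limma-voom each called 0, beside 0.288%, 0.982% and 0.239% of all rows in either direction. Hey1 alone of the 7 had an edgeR p under 0.05 before adjustment, which 7.17% of all rows reached. The median log2 change of these 7 was 0.06, beside 0.00 over all rows tested.

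Compared per length, in the FPKM values that the authors computed (fragments scaled by gene length and library size), Hes5 stood second among the 8 in both groups. In LPS mice the order of mean levels was Hey1 (24.7 FPKM), Hes5 (14.4), Rbpj (6.39), Hes1 (6.02), Notch1 (5.06), Notch3 (3.94), Notch2 (2.57) and Jag1 (1.27). In Saline mice it was Hey1 (21.8 FPKM), Hes5 (7.73), Rbpj (6.00), Notch1 (5.54), Hes1 (5.37), Notch3 (3.87), Notch2 (2.47) and Jag1 (1.55). Neighbours whose library ranges overlapped were Rbpj with Hes1 and Hes1 with Notch1 in LPS mice, and Notch1 with Hes1 in Saline mice, where Rbpj and Notch1 met at 5.68 FPKM. The other neighbours did not overlap within a group. The order in the middle depends on the gene length used: with CPM per kilobase of GENCODE exon, Hey1 and Hes5 stayed first and second, but Rbpj, whose exons add up to 12750 bases, came sixth in both groups.

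Hes5 in LPS mice, at 13.6 to 15.1 FPKM, reached well above Rbpj at 5.87 to 6.85 FPKM. In Saline mice Hes5 was at 7.30 to 8.37 FPKM and Rbpj at 5.68 to 6.46 FPKM. The size of this gap depends on the gene length, since per kilobase of GENCODE exon the Saline means were 7.89 CPM for Hes5 and 2.76 CPM for Rbpj. The ratio of Hes5 to Hes1 in FPKM was 2.45, 2.20 and 2.59 in the LPS libraries, against 1.22, 1.75 and 1.42 in the Saline libraries. That of Hes5 to Hey1 was 0.636, 0.591 and 0.531 in the LPS libraries, against 0.340, 0.379 and 0.345 in the Saline libraries. Both ratios were higher in each LPS library than in any Saline library, which restates the difference for which Hes5 was picked, since it is the numerator of both.

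**Figure D2:**
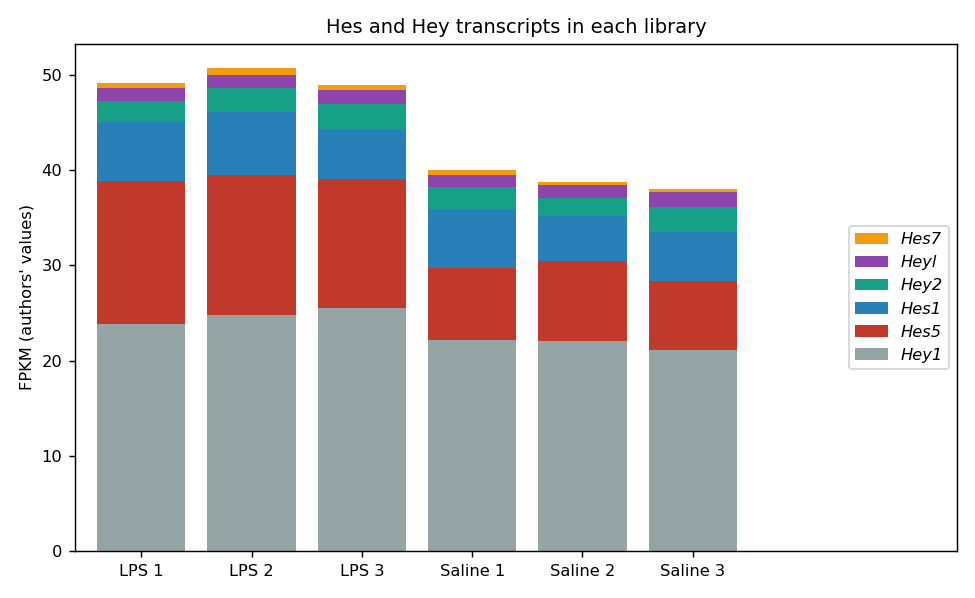
Stacked FPKM of the 6 measured Hes and Hey target genes in each library, LPS at the left, with Hey1 at the base and Hes5 in red. The stacks reach 49.0 to 50.7 FPKM in LPS mice and 38.1 to 40.0 FPKM in Saline mice, and the red segment takes 27.7% to 30.8% of the stack in LPS and 18.8% to 21.6% in Saline libraries.

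Summed over Hes1, Hes5, Hes7, Hey1, Hey2 and Heyl, the family's level was 49.2, 50.7 and 49.0 FPKM in the LPS libraries, against 40.0, 38.8 and 38.1 FPKM in the Saline libraries. The share of Hes5 in that sum was 29.1 ± 1.56% in LPS mice and 19.9 ± 1.5% in Saline mice (SD, n = 3 each). The summed level of Notch1 to Notch4 was 13.7 ± 0.408 FPKM in LPS mice and 13.5 ± 0.544 FPKM in Saline mice. Without Hes5, the family's sum was 34.1, 36.1 and 35.4 FPKM in the LPS libraries, against 32.4, 30.4 and 30.8 FPKM in the Saline libraries, most of it from Hey1. Hes5, picked for its difference, thus supplied most of the difference in the family's sum.

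The 9 lists of Notch pathway genes by role held 70 genes, the 8 members and 62 further ones, all measured, and Hes5 was the only one of the 70 that edgeR called. Before adjustment, 7 of the 70 had an edgeR p under 0.05, Hes5 included, beside 7.17% of all rows. The median log2 change of the 69 genes other than Hes5 was 0.04, beside 0.00 over all rows. DESeq2 called 2 of the 70, Hes5 and Lfng, and limma-voom 1, Hes5. The values below are for the genes with the smallest p in each list, so groups that do not overlap partly follow from that choice. Over all rows, the groups did not overlap in 6.84% with LPS above and in 6.84% with LPS below. EdgeR called 0.288% of all rows, DESeq2 0.982% and limma-voom 0.239%. Beside shares this small, 0 called in a list below says little about that list.

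Among ligands, Dll4, known from sprouting vessels, had 3.58, 4.10 and 2.93 CPM in the LPS libraries, against 5.42, 4.25 and 4.57 CPM in the Saline libraries. Each LPS value lay below each Saline value (log2 change -0.42, SE 0.18, edgeR adjusted p = 0.696). Dlk2, a non-canonical ligand gene whose exons overlap those of Abcc10, was at 0.13 (SE 0.0678). EdgeR, limma-voom and DESeq2 each called 0 of the 8 ligands, 1 was under 0.05 by edgeR before adjustment, and log2 changes ran from -0.42 to 0.46. The most abundant of them in CPM was Dner, a neuronal ligand, with a log2 change of 0.08 (SE 0.0754).

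The fourth receptor, Notch4, known from endothelium, had 15.1, 14.4 and 12.7 CPM in the LPS libraries, against 11.8, 12.2 and 10.6 CPM in the Saline libraries. The LPS values were all above the Saline values (log2 change 0.28, SE 0.106, edgeR adjusted p = 0.604). The 10 endothelial markers had a median log2 change of 0.05, with single markers running from -0.24 to 0.31. Their summed level was 395 to 404 CPM in LPS and 390 to 405 CPM in Saline libraries.

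Fringe enzymes add sugars to the receptors and change which ligands they answer to. Lfng, the lunatic fringe gene, had 29.6, 33.4 and 30.2 CPM in the LPS libraries, against 21.8, 25.9 and 20.3 CPM in the Saline libraries. Each LPS library exceeded each Saline library, and the log2 change was 0.45 (SE 0.101), or 1.37-fold. It did not pass in edgeR (adjusted p = 0.193) and passed in DESeq2 (adjusted p = 0.0155). Rfng, another fringe gene, was at 0.17 (SE 0.0772, edgeR adjusted p = 0.705), also without overlap, while Mfng, Pofut1 and Poglut1 were between 0.00 and 0.03 in size. Lfng was the pathway gene with the smallest p after Hes5, and was named by that rank.

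Of the 10 genes that cut the receptor, Furin, whose protease trims Notch on its way to the surface, had 40.6, 46.1 and 42.9 CPM in the LPS libraries, against 35.4, 37.9 and 32.8 CPM in the Saline libraries. The log2 change was 0.29 (SE 0.08, edgeR adjusted p = 0.369). The groups did not overlap, and a gap in this direction was present in 6.84% of all rows. The protease genes Adam10 and Adam17 and the gamma-secretase genes Psen2, Ncstn, Aph1a, Aph1b, Aph1c and Psenen had log2 changes between -0.12 and 0.08. Adam17, Ncstn, Aph1a and Psenen overlap exons of other tested genes, so their reads are uncertain. Furin was the member of this list that stood apart from the rest, and it missed the threshold.

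The 4 ligand ubiquitin ligase genes, which make ligands active, had log2 changes between -0.02 and 0.04, with Mib2 at 0.04 (SE 0.0509) and Neurl1a at 0.03 (SE 0.053). In the nuclear activation complex, edgeR, limma-voom and DESeq2 each called 0 of 9 genes, and 0 were under 0.05 by edgeR before adjustment. Snw1, a coactivator gene that overlaps Slirp, was at -0.15 (SE 0.071) and Crebbp, a histone acetyltransferase gene, at 0.15 (SE 0.0876). The mastermind genes Maml1, Maml2 and Maml3 were between -0.07 and -0.03.

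Among the 14 corepressor genes, which hold Rbpj sites silent, 0 were called by edgeR, limma-voom or DESeq2. By edgeR before adjustment 0 were under 0.05, beside 7.17% of all rows. Kdm5a, a histone demethylase gene that overlaps Ccdc77, was at -0.12 (SE 0.0722) and Tle2, a Groucho corepressor gene, at 0.13 (SE 0.079). Of the 10 negative regulators 0 passed in the same 3 tools and 1 was under 0.05 before adjustment. That gene was Itch, a ubiquitin ligase gene, at 48.2, 54.6 and 49.7 CPM in the LPS libraries, against 56.3, 57.8 and 55.3 CPM in the Saline libraries (log2 change -0.15, SE 0.0661, edgeR adjusted p = 0.696). Dtx4, a deltex gene, was at 0.13 (SE 0.0642).

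Nrarp, a direct Notch target that feeds back on the pathway, had 25.8, 29.4 and 24.3 CPM in the LPS libraries, against 30.6, 29.3 and 29.4 CPM in the Saline libraries. Its log2 change was -0.17 (SE 0.0856), opposite in sign to Hes5. Hey2 was at 0.13 (SE 0.161) and Heyl at 0.04 (SE 0.121), with overlapping groups. Hes7 had about 1 CPM (log2 change 0.51, SE 0.306) and overlaps an antisense gene, so its reads are uncertain. Nrarp, Hey2, Heyl and Hes7 are named here as the remaining genes of the target list.

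**Figure D3:**
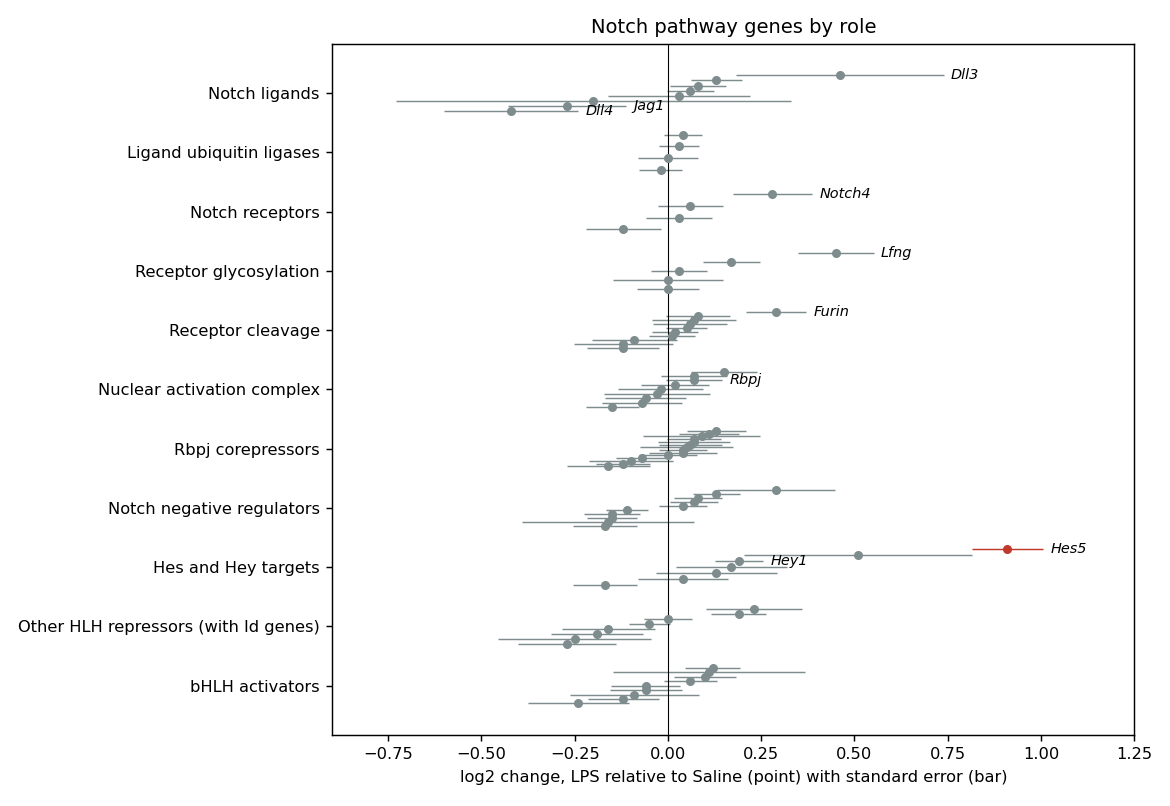
Log2 change of each listed gene, LPS relative to Saline, with its standard error, grouped by role from ligands at the top to helix-loop-helix genes at the bottom; red marks an edgeR adjusted p under 0.05. Hes5 at 0.91 is the red point, and the other points lie between -0.42 and 0.51.

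A list of 8 other helix-loop-helix repressor genes held 4 bHLH genes and the 4 Id genes, whose proteins lack the basic DNA-binding region. Of these 8, edgeR, limma-voom and DESeq2 each called 0, with 1 under 0.05 by edgeR before adjustment and a median log2 change of -0.10. Bhlhe22, a cortical neuron gene, was at 0.19 (SE 0.0734) and Bhlhe41, a clock-linked repressor gene, at -0.27 (SE 0.131). The Id genes, which are switched on by BMP signals, were between -0.16 and 0.23. The bHLH activators, whose proteins Hes repressors oppose, had a median of -0.06 over 9 measured genes, with 0 passing in the same 3 tools and 0 under 0.05 before adjustment. Neurod1 was at -0.24 (SE 0.136) and Olig1 at 0.12 (SE 0.074).

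Astrocytes are one cell type in which Notch genes are known in the cortex. Of 15 astrocyte markers, edgeR, limma-voom and DESeq2 each called 0, and the median log2 change was -0.02. By edgeR before adjustment 1 was under 0.05, beside 7.17% of all rows. That marker, named after its values were seen, was S100b (log2 change -0.18, SE 0.0605), lower in each LPS library than in any Saline library. Of the 15 markers, 7 had positive and 8 negative log2 changes. The summed level of the 15 was 4210 to 7280 CPM in LPS and 4340 to 6740 CPM in Saline libraries. This spread came from Slc1a2, a glutamate transporter gene, which had 3560, 3760 and 752 CPM in the LPS libraries, against 866, 966 and 3360 CPM in the Saline libraries. Without it the sum was 3160 to 3530 CPM in LPS and 3380 to 3470 CPM in Saline libraries. Hes5 relative to the mean log2 CPM of the whole list was -3.06, -3.17 and -3.14 in the LPS libraries, against -3.96, -3.89 and -4.20 in the Saline libraries. The difference between the groups was 0.89 with the whole list and 0.933 without Slc1a2, and it carries the values for which Hes5 was picked. The part of astrocytes in the level of Hes5 was not tested.

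The summed level of progenitor and ependymal markers was 139, 145 and 135 CPM in the LPS libraries, against 152, 149 and 168 CPM in the Saline libraries. This sum was lower in each LPS library than in any Saline library, but the list's mean log2 CPM overlapped between the groups. Relative to the Saline mean it was -0.13, -0.03 and -0.22 in the LPS libraries, against -0.06, -0.01 and 0.07 in the Saline libraries. The part of these cell types in the level of Hes5 was not tested. Sox2, a transcription factor gene of progenitors and glia, had 34.3, 37.0 and 36.5 CPM in the LPS libraries, against 42.4, 41.6 and 42.3 CPM in the Saline libraries (log2 change -0.23, SE 0.0645, edgeR adjusted p = 0.397). Nes, a filament gene of progenitors and some vessel cells, had 16.1, 19.9 and 18.2 CPM in the LPS libraries, against 27.1, 23.1 and 20.2 CPM in the Saline libraries (log2 change -0.38, SE 0.123, edgeR adjusted p = 0.508). In Prom1 the LPS libraries were all above the Saline libraries (log2 change 0.27, SE 0.0873). EdgeR, limma-voom and DESeq2 each called 0 of the 7 measured genes, and Sox2, Nes and Prom1, 3 of the 7, were under 0.05 by edgeR before adjustment, beside 7.17% of all rows. These 3, and the precursor and microglia markers named next, were chosen after their values were seen.

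Summed marker levels of the other lists overlapped between the groups. Oligodendrocyte precursor markers were at 418 to 463 CPM in LPS and 379 to 427 CPM in Saline libraries, with 0 of 8 called by edgeR, limma-voom or DESeq2 and 4 under 0.05 by edgeR before adjustment, beside 7.17% of all rows. Those 4 were Pdgfra (log2 change 0.20, SE 0.0843), Gpr17 (0.21, SE 0.0715) and C1ql1 (0.27, SE 0.115) with positive values, and Sox10 (-0.16, SE 0.0685) with a negative one. The exons of Gpr17 overlap those of Lims2, so its reads are uncertain. Mural cell markers were at 407 to 473 CPM in LPS and 386 to 441 CPM in Saline libraries. Microglia markers were at 369 to 396 CPM in LPS and 358 to 378 CPM in Saline libraries. Among them Cx3cr1 had 5.41, 35.3 and 36.1 CPM in the LPS libraries, against 5.68, 10.5 and 10.9 CPM in the Saline libraries. Of these 8 markers edgeR called 0, and 2 were under 0.05 before adjustment, both lower in LPS. Those were C1qa (log2 change -0.17, SE 0.0738) and Aif1 (-0.47, SE 0.182), while 5 of the 8 had positive values. Meninges and choroid plexus markers, of which 6 of 8 had a row, were at 103 to 174 CPM in LPS and 86.5 to 166 CPM in Saline libraries. The part of these cell types in the level of Hes5 was not tested.

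**Figure D4:**
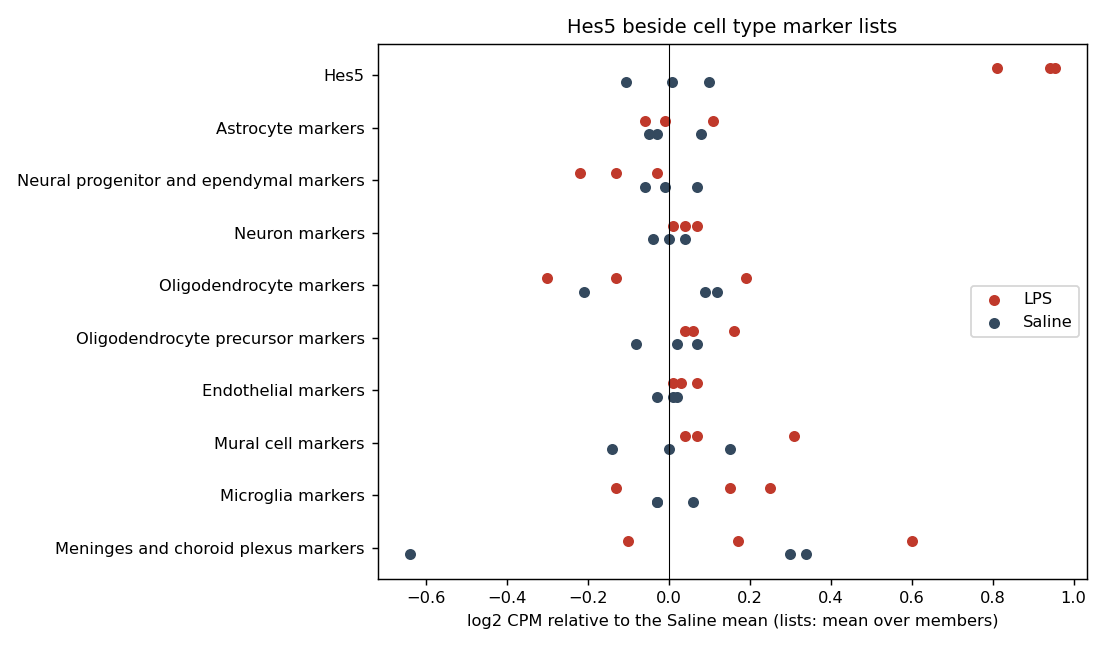
Log2 CPM of Hes5 and mean log2 CPM of each cell type marker list in every library, each set relative to its Saline mean, with LPS libraries in red above Saline libraries in blue-grey. Hes5 lies apart from the Saline mean in the 3 LPS libraries, while in most lists the colours mix.

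The genes with the profile most like Hes5 over the 6 libraries were ranked among 13130 candidates by the root mean square difference of mean-centred log2 CPM. The nearest were Hmga1 (0.122), Ndn (0.134), Map3k6 (0.147), St8sia2 (0.152), Fkbp5 (0.156) and Nostrin (0.156). Hmga1, a chromatin protein gene whose exons overlap AI413582, had 31.4, 31.9 and 34.4 CPM in the LPS libraries, against 15.2, 16.5 and 15.9 CPM in the Saline libraries. St8sia2, a polysialic acid synthase gene, had 9.44, 10.6 and 8.38 CPM in the LPS libraries, against 5.95, 5.20 and 5.84 CPM in the Saline libraries. Its edgeR adjusted p was 0.0696. EdgeR and limma-voom called Hmga1 and Ndn but not Map3k6, St8sia2, Fkbp5 or Nostrin, while DESeq2 called each of the 6. Likeness to a gene picked for its group difference selects genes that differ between the groups. No Notch pathway gene was among the 6. The pathway lists held 69 genes other than Hes5, few beside 13130 candidates, so their absence from the 6 says little about the pathway.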

How the data were processed

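The authors deposited raw counts for each gene and, in the same table, FPKM values. Build GRCm38, DESeq 1.10.1 and TopHat2 2.1 are named in the submitters' processing notes; the counting program, annotation and gene lengths are not stated there. The kit is not stated to keep strand. The 14250 rows were tested with edgeR 4.0.16 in R 4.3.3 (quasi-likelihood, robust, TMM factors, treatment as the only term); the low-count filter removed 0 rows. P-values had Benjamini-Hochberg adjustment over all rows, and 0.05 was the threshold. Alternatives used DESeq2 1.42.0 and limma 3.58.1. Only the main edgeR fit and the DESeq2 and limma-voom fits were tested on simulated counts, and their recovery is not reported here. Gene positions came from GENCODE M21.

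The members and lists were chosen with earlier results of these data known. Named genes are the 8 members, each list's called genes or otherwise its 2 smallest p, and the 6 profiles nearest Hes5, with symbols starting Gm or ending Rik left out and a mean CPM of at least 1; the others are marked in the text. FPKM per CPM differed between libraries by at most 1.04 times for the members. Protein sequences were not used here. Some listed genes are not reported here by name.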

Additional observations from a re-analysis of the deposited data

How the results depend on the processing

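Hes5 had a log2 change of 0.82 to 0.96 in the fits tried, was called in each, and had 0.86 to 0.96 when 1 library was left out. All these fits use the libraries in which Hes5 was picked for its difference, so its calls are not separate evidence. Leaving out 1 library gave 14 to 20 genes higher and 22 to 35 lower, and for Notch pathway genes 1 higher and 0 lower each time. Notch3 ran from -0.04, without Saline 3, to 0.09. DESeq2 called 60 genes higher and 80 lower, and 2 Notch pathway genes higher. Limma on FPKM called 8 higher with either pseudocount (1 or 0.1). With CPM per kilobase of exon, the mean log2 levels were 2.16 for Hes1, 4.23 for Hey1, 1.94 for Notch1, 2.08 for Notch3 and 1.5 for Rbpj, against 2.50, 4.54, 2.40, 1.96 and 2.63 in log2 FPKM. Apart from the gene length, the cause was not tested.

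The labels do not state whether equal replicate numbers pair mice. Deviations of equally numbered libraries had correlations of -0.0334, 0.034 and 0.0524. With 3 libraries per group these values cannot decide whether mice were matched. With replicate number as block, edgeR called 10 genes higher and 21 lower and gave Hes5 0.91. Without the robust option, added after seeing the data, Hes5 had 0.91. Lfng was called by DESeq2 and by no other fit, with edgeR adjusted p of 0.0767 to 0.549 when 1 library was left out. The edgeR call of Ndn (log2 change 0.74) was lost with the block, without Saline 3 and in FPKM. With 3 mice per group, small differences in the other members could be missed.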
